A study of Homo sapiens with 13 samples.

Results

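The loci examined were those of 5 NF-κB subunit genes (NFKB1, NFKB2, REL, RELA and RELB) and of 2 genes that restrain the pathway (NFKBIA and TNFAIP3). Members were all peaks, in any of 12 CUT&RUN peak lists, that overlapped one of the 7 gene spans or the 25 kb on either side of it. They numbered 1140 of the 3429979 peaks in all lists. The spans are rounded to kb on hg19, the build named in the submitters' processing notes, and reach from 103422 to 103538 kb on chromosome 4 for NFKB1, 104154 to 104162 kb on chromosome 10 for NFKB2, 61109 to 61155 kb on chromosome 2 for REL, 65421 to 65430 kb on chromosome 11 for RELA, 45505 to 45541 kb on chromosome 19 for RELB, 35871 to 35874 kb on chromosome 14 for NFKBIA and 138188 to 138204 kb on chromosome 6 for TNFAIP3. RELA and NFKBIA are read from the minus strand, so their 5′ ends are the higher coordinates.

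CUT&RUN maps where a protein sits on chromatin, by cutting and sequencing the DNA that an antibody against it marks. The cells were Nalm6, a long-established line from human acute lymphoblastic leukaemia of the B lineage, kept in medium with charcoal-stripped serum. They were exposed for 24 h to 5 µM of the synthetic glucocorticoid prednisolone or served as controls, for which the labels name a vehicle in one field and no treatment in another. Rabbit antibodies against LEF1 and TCF7L2, both DNA-binding factors of the TCF/LEF family that carry out canonical Wnt signalling, gave 3 libraries for each of the 4 combinations. A single cell line was used, and its identity cannot be read from peak lists, which hold no expression values.

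NF-κB factors are dimers of Rel-homology proteins that wait in the cytoplasm bound to inhibitors and enter the nucleus when a signal destroys the inhibitor. NFKBIA encodes the inhibitor IκBα, and TNFAIP3 encodes a ubiquitin-editing enzyme that shuts off signalling further upstream. Both are themselves NF-κB target genes. Glucocorticoids are known to oppose NF-κB, and NFKBIA is a known glucocorticoid-induced gene in lymphoid cells.

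Promoters of 5 of the 7 genes are shown, to give the sequence at the gene starts against which the peaks below are placed. Many of those peaks lie far from a gene start. They are RefSeq sequences on GRCh38.p14, written from 250 bases before to 50 bases after a gene start and found by symbol for 6 of the 7 genes (10 entries, with none for RELB). They were not placed on hg19. Capitals mark matches to the κB pattern, GGGA and CC with NNNN between them, searched on both strands.
NFKBIA (minus strand, chr14:35404700-35404999): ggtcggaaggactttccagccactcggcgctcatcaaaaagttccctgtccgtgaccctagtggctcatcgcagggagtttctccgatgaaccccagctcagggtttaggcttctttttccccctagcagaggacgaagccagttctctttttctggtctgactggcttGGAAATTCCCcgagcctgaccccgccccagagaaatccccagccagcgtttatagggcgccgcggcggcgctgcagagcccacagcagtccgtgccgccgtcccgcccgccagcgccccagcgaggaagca
TNFAIP3 (plus strand, chr6:137867009-137867308): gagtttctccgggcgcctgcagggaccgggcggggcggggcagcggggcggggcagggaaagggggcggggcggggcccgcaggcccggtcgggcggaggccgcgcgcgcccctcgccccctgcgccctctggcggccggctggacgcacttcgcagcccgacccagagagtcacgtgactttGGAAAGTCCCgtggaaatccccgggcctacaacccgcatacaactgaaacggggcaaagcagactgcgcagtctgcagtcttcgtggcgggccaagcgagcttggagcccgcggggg
NFKB1, first entry (plus strand, chr4:102501109-102501408): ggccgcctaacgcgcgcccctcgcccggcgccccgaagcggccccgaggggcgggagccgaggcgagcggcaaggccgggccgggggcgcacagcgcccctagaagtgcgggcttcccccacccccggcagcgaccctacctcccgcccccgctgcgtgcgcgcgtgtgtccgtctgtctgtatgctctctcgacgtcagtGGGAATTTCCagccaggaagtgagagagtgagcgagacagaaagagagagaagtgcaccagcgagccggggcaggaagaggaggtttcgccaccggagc
REL (plus strand, chr2:60881324-60881623): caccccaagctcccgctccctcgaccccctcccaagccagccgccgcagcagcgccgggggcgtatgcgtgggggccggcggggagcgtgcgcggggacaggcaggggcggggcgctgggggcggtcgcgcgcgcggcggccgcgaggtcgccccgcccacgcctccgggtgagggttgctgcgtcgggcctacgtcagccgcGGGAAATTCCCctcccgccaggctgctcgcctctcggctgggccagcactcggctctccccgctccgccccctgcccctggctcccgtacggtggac
RELA, first entry (minus strand, chr11:65663808-65664107): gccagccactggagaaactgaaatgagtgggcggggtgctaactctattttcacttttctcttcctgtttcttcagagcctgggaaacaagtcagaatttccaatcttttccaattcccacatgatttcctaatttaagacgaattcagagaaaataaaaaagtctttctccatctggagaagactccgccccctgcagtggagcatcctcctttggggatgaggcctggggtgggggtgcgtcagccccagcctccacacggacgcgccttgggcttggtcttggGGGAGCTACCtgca
RELA, second entry (minus strand, chr11:65662867-65663166): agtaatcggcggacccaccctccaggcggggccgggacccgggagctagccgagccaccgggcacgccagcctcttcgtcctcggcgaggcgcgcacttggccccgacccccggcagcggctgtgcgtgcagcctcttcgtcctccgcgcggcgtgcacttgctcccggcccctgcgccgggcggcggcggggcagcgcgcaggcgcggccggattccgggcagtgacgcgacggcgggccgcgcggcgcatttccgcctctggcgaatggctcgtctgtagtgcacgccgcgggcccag

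A κB match was present in 9 of the 10 entries, against 25.6% of 35116 RefSeq promoter entries of the same length. REL had a pair of overlapping matches, GGGAAATTCC and GGAAATTCCC, and NFKB1 had GGGAATTTCC. No entry held the TCF/LEF cores CTTTGA or CTTTGT on either strand, which 26.2% of all entries hold. None held the glucocorticoid receptor pattern either, GNACA and TGTNC with NNN between them, which 0.39% of all entries hold. These are matches of letters in a short window, and neither a match nor its absence is evidence about binding.

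Library size and list quality bear on all values below. The deposited lists held 128863 to 395786 peaks each. Unless another list is named, comparisons rest on the 20000 strongest peaks of each list by p-value, called strong peaks here. Full lists, ranks in them and lists limited by q-value differ in length between libraries. At rank 20000 the −log10 q-value was 5.49 to 6.62 in LEF1 lists and 0.390 to 0.996 in TCF7L2 lists, so strong TCF7L2 peaks reach weaker calls. The libraries fell into sets by the shortest peak in the list, a property of peak calling. In LEF1 control 1 and prednisolone 2 and 3 it was 164 to 165 bp, and in LEF1 control 2 and 3 and prednisolone 1 it was 187 to 197 bp. For TCF7L2 the same replicate numbers formed the sets, at 193 to 201 bp and 158 to 167 bp. Both sets hold libraries of both treatments. Where treatment groups did not overlap, the same order within each set follows by construction and was not used as support. Folds are the authors' own ratios over the background that the peak caller modelled, and ranks count from the strongest peak of a list down. In comparisons of rank order, a library without a strong peak was placed behind all strong ranks.

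The 7 windows together held 8 to 14 strong LEF1 peaks and 3 to 13 strong TCF7L2 peaks per library. Per Mb this was 13.7 to 24.0 for LEF1 and 5.14 to 22.3 for TCF7L2, beside 6.46 over the span of the lists. Merging the strong peaks of all 12 lists gave 41 regions in the windows, of which 22 had a strong peak in a single library. That is 53.7%, beside 62.9% of the 94374 regions of the genome. Strong LEF1 peaks in all 6 libraries were found in 2 of the 41 regions (4.88%, beside 8.01% in the genome), in the TNFAIP3 gene and downstream of NFKB2. Strong TCF7L2 peaks in all 6 libraries were found in 1 region (2.44%, beside 1.92%), at the 5′ end of NFKBIA. Summed over the 6 LEF1 libraries, NFKB1 held 20 strong peaks, TNFAIP3 19, NFKBIA 9, NFKB2 6, REL and RELB 3 each and RELA 0. The order did not follow window length, which was 166 kb for NFKB1, 66 kb for TNFAIP3, 53 kb for NFKBIA, 96 kb for REL and 86 kb for RELB. With the genome cut into tiles of each window's length, a share of tiles held at least as many strong LEF1 peaks, counted by summit. The share was 2.35% for TNFAIP3, 7.69% for NFKBIA, 9.92% for NFKB1, 15.7% for NFKB2, 32.1% for RELB, 34.3% for REL and 100% for RELA. For TCF7L2 it ran from 5.02% for NFKBIA to 50.6% for RELB.

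**Figure D1:**
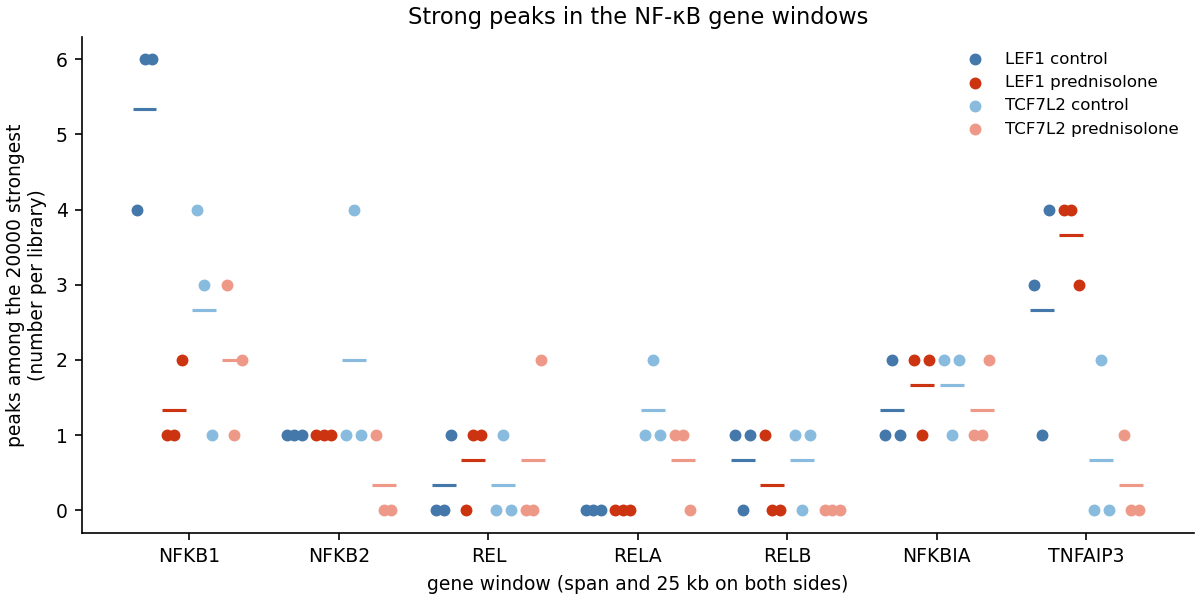
Number of peaks among the 20000 strongest of each library in each gene window (y axis), by gene (x axis). Points are libraries, 3 per group, and bars are group means. At NFKB1 the 3 LEF1 control libraries hold 4, 6 and 6 peaks and the 3 LEF1 prednisolone libraries 1, 1 and 2.

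NFKB1 encodes the precursor of the p50 subunit. Its window of 166 kb held 322 LEF1 and 160 TCF7L2 peaks in the full lists, the most of the 7 loci and also the longest window. Strong LEF1 peaks numbered 4, 6 and 6 in the control libraries and 1, 1 and 2 after prednisolone. The groups did not overlap, with means of 5.33 ± 1.15 and 1.33 ± 0.577 (SD, n = 3 each). The exact permutation test gives p = 0.1 for such a pattern, the smallest value that 3 libraries against 3 allow. Over all 166 kb tiles of the genome, counted by peak summit, 2.19% had fewer strong LEF1 peaks in every prednisolone library than in every control, and of the 4478 tiles with 10 or more strong LEF1 peaks 5.18% did. The difference depended on the threshold. With peaks limited by significance, to −log10 q-values from 5 upwards, the counts were 5, 10 and 9 in controls and 5, 1 and 2 after prednisolone, so that the ranges met. All deposited peaks numbered 66, 48 and 61 against 57, 63 and 27, and overlapped. At that q-value limit 2 of 24 LEF1 regions in the windows met the rule for loss given under RELA and 0 that for gain, beside 2.11% and 2.17% of such regions in the genome. Both lay in NFKB1, about 13.8 and 78.2 kb inside. Strong TCF7L2 peaks at NFKB1 numbered 4, 3 and 1 in controls and 3, 1 and 2 after prednisolone, with no separation.

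A LEF1 site far inside the gene, in the region chr4:103520794-103523220 about 100 kb from the 5′ end, held the best LEF1 peak of the NFKB1 window in 4 of 6 libraries. In control 1 the best peak lay at 2.7 kb (rank 7792), and in prednisolone 1 at 119.9 kb (rank 15995). In control libraries the peak at 100 kb ranked 10407, 7702 and 8540, with folds of 7.57, 8.74 and 7.87. After prednisolone it ranked 21046, 13029 and 11888, with folds of 5.11, 7.39 and 6.91. Every treated library ranked it behind every control library. Of all LEF1 regions, 7.66% showed this order by strong ranks and 12.5% by whole-list ranks. In the TCF7L2 lists the NFKB1 site was met only by peaks ranked 155971 or beyond, in the 3 control libraries. The antibody difference was 5 LEF1 libraries against 0 TCF7L2 libraries with a strong peak. It gave an unadjusted p = 0.02 when antibody labels were exchanged within treatment in an exact permutation test.

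The same order was found at a further pair of NFKB1 regions when whole-list ranks were used, and both were picked after their values were seen. Of all LEF1 regions, 12.5% were behind in every treated library by whole-list ranks. At chr4:103435443-103436246, 13.8 kb inside, LEF1 ranks were 10241, 9197 and 24805 in controls and 49564, 54094 and 27954 after prednisolone, with folds of 8.15, 8.94 and 5.5 against 4.08, 3.88 and 4.74. At chr4:103499501-103500809, 78.2 kb inside, they were 23446, 16831 and 16926 against 29173, 80192 and 43285, with folds of 5.65, 6.64 and 6.5 against 5.1, 3.33 and 4.0. In both, 2 control libraries and no treated library held a strong peak.

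At the other regions of the NFKB1 window with a strong LEF1 peak the ranks of the treatments overlapped. The region chr4:103424024-103426504, about 3.3 kb inside, ranked 7792, 20523 and 9119 in controls and 21106, 31908 and 19451 after prednisolone. The ranges overlap, since control 2 ranked behind prednisolone 3. At chr4:103494504-103496954, 73.7 kb inside, the control ranks were 9564, 16344 and 29332 and the prednisolone ranks 20819, 61800 and 55093, again overlapping. At the 5′ end itself, chr4:103421647-103422461, no LEF1 library had a strong peak, so it was not counted among the LEF1 regions. Its weak LEF1 peaks ranked 107670, 194620 and 93708 in controls and 34812, 71182 and 42148 after prednisolone. Every treated library was thus ahead of every control, but this depended on how peaks were joined. No genome share is given here for regions without a strong LEF1 peak. The peak of prednisolone 3 had its summit 1.42 kb inside. With 500 bp windows around summits that library had no peak at the 5′ end, and the order did not hold. Strong TCF7L2 peaks were found there in control 1 and 2 (ranks 19389 and 11798) and in prednisolone 1 (rank 3933), and not in the other 3 libraries.

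**Figure D2:**
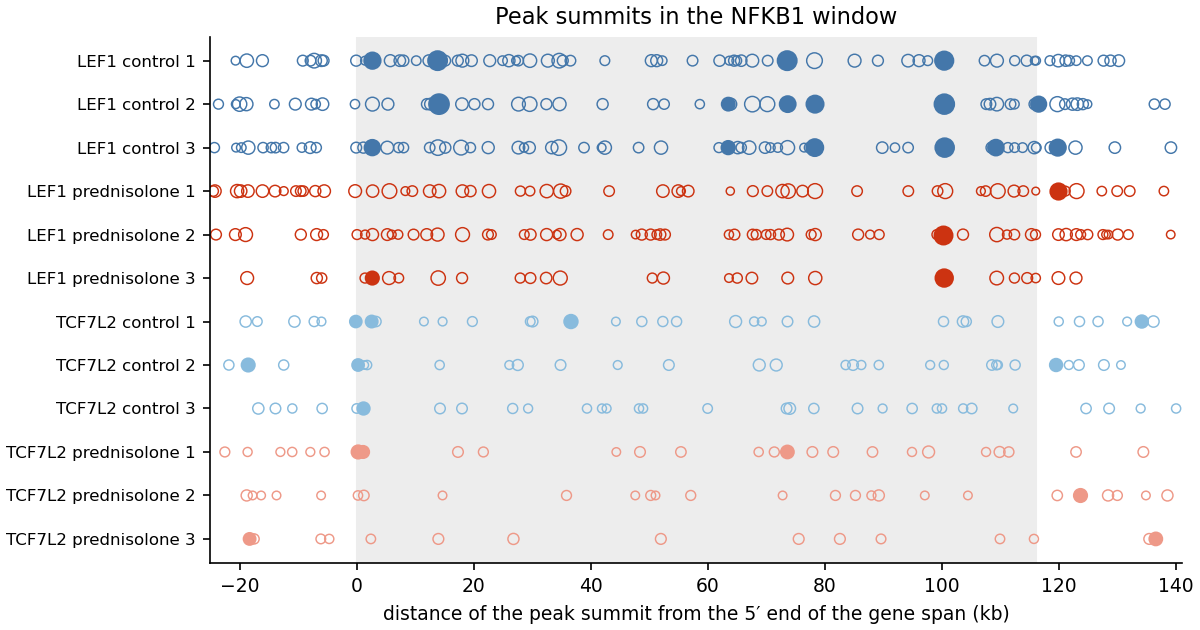
Peak summits in the NFKB1 window, by distance from the 5′ end of the gene span (x axis, kb), with a row for each of the 12 libraries. Filled circles are among the 20000 strongest peaks of the library, open circles are weaker peaks, circle area is proportional to the fold and the grey area is the gene span. LEF1 control rows hold 4, 6 and 6 filled circles and LEF1 prednisolone rows 1, 1 and 2.

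NFKB2 encodes the precursor of the p52 subunit, which serves the non-canonical branch of the pathway. LEF1 peaks were sparse at the gene, with 2 to 6 per full list in its window, and TCF7L2 lists held 1 to 14. The most shared region of the window, chr10:104179585-104181147, lay beyond the 3′ end, 26.4 kb from the 5′ end. Within 25 kb, RefSeq lists MANBA at NFKB1, PUS10 at REL, and PCNX3 and SIPA1 at RELA. At NFKB2 it lists GBF1, PSD, FBXL15 and CUEDC2, and the region was not assigned to any gene. Its LEF1 peak was strong in all 6 libraries, at ranks 19708, 12094 and 6983 in controls and 8550, 19611 and 17772 after prednisolone, and the ranges overlap. The TCF7L2 peak was strong in control 1 (rank 1670) and control 3 (rank 10785), was at rank 169376 in control 2, and was at rank 276788, at rank 91378 and absent in the prednisolone libraries 1, 2 and 3. Inside the gene, the region chr10:104154689-104155304 had a TCF7L2 peak in all 3 control lists and in no prednisolone list, but it was strong in control 2 alone (rank 8356). In control 1 and control 3 the peak ranked 197202 and 176856, each with a −log10 q-value of 0.0. No genome share is given here for this full-list pattern. By whole-list ranks, with absent peaks placed last, the region was behind in every prednisolone library, as were 6.54% of all TCF7L2 regions. At the 5′ end itself TCF7L2 was strong in prednisolone 1 alone, at rank 2127.

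REL encodes c-Rel, the subunit most tied to lymphocytes. Its best region, chr2:61109423-61111202, lay about 1.3 kb inside the gene. LEF1 peaks there ranked 23973, 107560 and 7475 in controls and 30666, 9825 and 15334 after prednisolone, with folds from 2.08 to 5.86. Peaks of the 5 libraries other than control 2 had summits between 1.14 and 1.25 kb from the 5′ end. The order of the treatments was mixed, and the spread within a group was wider than any difference between groups. No TCF7L2 library had a strong peak in this region, and the other 3 regions of the REL window were each strong in 1 TCF7L2 library.

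RELA encodes p65, the main transactivating subunit. No LEF1 library had a strong peak anywhere in the RELA window, and the best LEF1 rank there was 22008. TCF7L2 peaks were found near the 5′ end of the gene. The region chr11:65430519-65431285 lay about 0.9 kb upstream of the rounded 5′ end, and its place against the RELA promoter entries was not determined. It had a strong TCF7L2 peak in all 3 control libraries, at ranks 13345, 5140 and 6565 with folds of 2.44, 3.29 and 3.19. After prednisolone it ranked 170674 in replicate 1 and 74298 in replicate 2, with folds of 1.89 and 2.04, and replicate 3 had no peak. This was the only region of the 7 windows that met the rule for loss or gain, which asks for a strong peak in all 3 libraries of one treatment and none of the other. The other 3 regions of the window were each strong in 1 TCF7L2 library.

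For a single region that pattern has p = 0.1 in the exact permutation test, and 1.0 after Benjamini-Hochberg adjustment over all 79320 TCF7L2 regions. It was met by 1 of the 31 TCF7L2 regions in the windows, and in the genome by 1.24% for loss and 0.363% for gain. The RELA peak was of modest strength, with −log10 q-values of 1.05, 2.77 and 2.85 in the controls, and it did not meet the rule for loss with lists of 5000 or 10000 peaks, with peaks ranked by fold, or with −log10 q-values from 5 upwards. For the shorter lists and the q-value limit this followed from its control ranks and q-values. None of the 18 LEF1 regions in the windows was gained or lost, beside 2.82% and 1.91% of all LEF1 regions. In the exact permutation test no treatment comparison of 3 libraries against 3 can pass p = 0.05, and 0 regions did so before adjustment.

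RELB encodes the subunit that pairs with p52. The window had its most shared region at chr19:45542317-45542940, 37.6 kb from the 5′ end and just beyond the 3′ end, on the side of the neighbouring gene CLASRP. RefSeq lists CLPTM1 and CLASRP within 25 kb of RELB, and the region was not assigned to any gene. LEF1 peaks ranked 9999, 40410 and 125510 in controls and 15533, 20863 and 69841 after prednisolone, which overlap. TCF7L2 peaks were present in all 3 control lists, at ranks 9995, 47665 and 5152, and in none of the full prednisolone lists. The full list of TCF7L2 prednisolone 3 was the shortest of its antibody, with 144091 peaks, so absence from it is easier. No genome share is given here for such full-list patterns. By whole-list ranks, with absent peaks placed last, the region was behind in every prednisolone library, as were 6.54% of all TCF7L2 regions. Since control 2 was outside the strong peaks, the region did not meet the rule for loss. Inside the gene, at chr19:45519652-45520837, every LEF1 list had a peak and no TCF7L2 list had one, and it was strong in LEF1 control 3 alone (rank 19122).

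NFKBIA had the most widely shared region of all 7 windows. The region chr14:35872881-35875343 spans the 5′ end of the gene and had a strong peak in 10 of the 12 libraries and a peak in all 12. No other protein-coding gene lies within 25 kb of NFKBIA in RefSeq. TCF7L2 peaks ranked 6677, 6340 and 4453 in controls and 5433, 2727 and 8690 after prednisolone. The treated range encloses the control range, so no treatment difference is seen. The folds were 2.97, 3.13 and 3.65, and 3.51, 2.91 and 2.41.

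The LEF1 peak at the same place ranked 58765, 19002 and 33184 in control libraries, with folds of 2.27, 3.43 and 2.89. After prednisolone it ranked 13189, 17658 and 11476, with folds of 4.0, 3.71 and 4.10. All 3 treated libraries thus ranked it ahead of all 3 controls, and only control 2 of the controls held it among its strong peaks. Of all LEF1 regions, 7.78% were ahead in every treated library when libraries without a strong peak were placed behind all strong ranks. With whole-list ranks, as printed here, 13.9% were.

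LEF1 and TCF7L2 summits at NFKBIA did not coincide. LEF1 summits lay 0.13 to 0.34 kb upstream of the rounded 5′ end in all 6 libraries. TCF7L2 summits lay 0.29 to 0.67 kb inside the gene in all 6 libraries. The distance between the medians of the strong peaks was 740 bp, beside a median of 86 bp over the 5875 regions of the genome with at least 3 strong peaks of each antibody. Such a separation was not rare: 10.7% of those regions had non-overlapping summits, and 11% had medians at least as far apart. Upstream of NFKBIA, chr14:35890720-35892116 held a LEF1 peak in all 6 lists and no TCF7L2 peak in any full list. Its LEF1 ranks were 18624, 16071 and 7410 in controls and 15444, 165211 and 17609 after prednisolone, with prednisolone 2 far behind the other libraries.

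**Figure D3:**
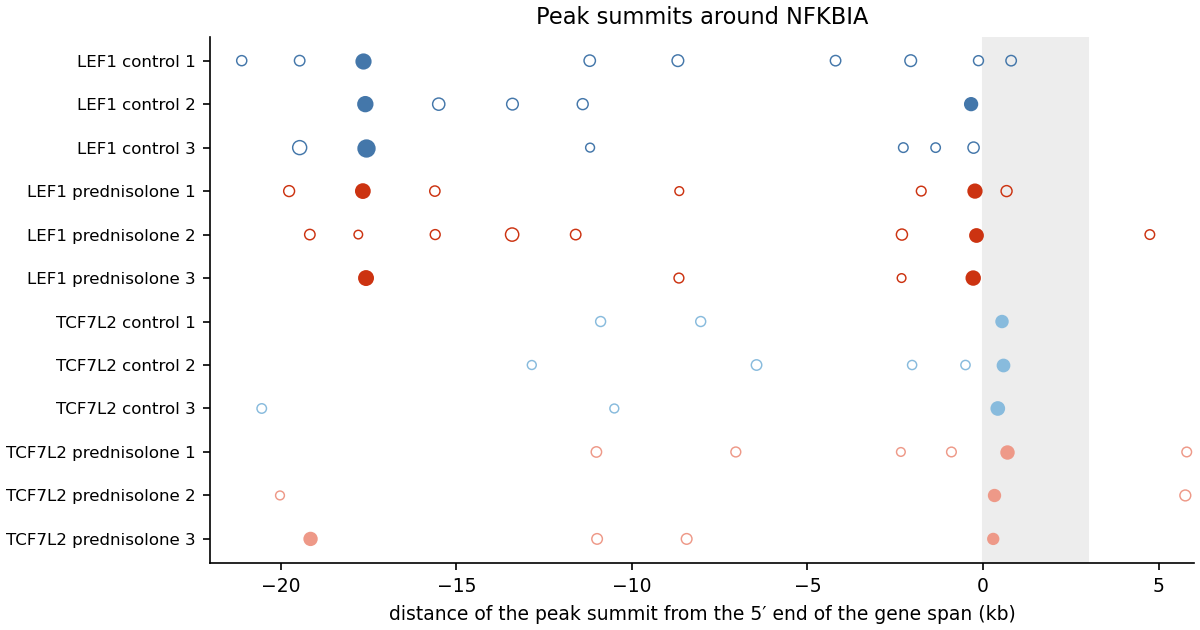
Peak summits from 22 kb upstream to 6 kb downstream of the NFKBIA 5′ end (x axis, kb), drawn as in the NFKB1 plot. Between 0.13 and 0.34 kb upstream all LEF1 rows have a summit, and between 0.29 and 0.67 kb inside the gene all TCF7L2 rows have a filled circle.

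TNFAIP3 had the strongest LEF1 peaks of the 7 loci. The region chr6:138188386-138195265 was 6880 bp long and covered the 5′ part of the gene. Its best LEF1 peak ranked 1923, 2367 and 2961 in control libraries, with folds of 10.4, 10.1 and 8.62. After prednisolone it ranked 3182, 2974 and 5198, with folds of 8.05, 8.94 and 6.89. Each treated library was behind each control, though control 3 and prednisolone 2 lay close together, and the best peaks of control 1 and prednisolone 2 were at another summit than the rest. Of all LEF1 regions, 7.66% were behind in every treated library, and 12.5% with whole-list ranks.

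Inside this region a summit 4.1 kb from the 5′ end was shared by all 6 LEF1 libraries. The summits fell between 4.06 and 4.19 kb, at ranks 3392, 2367 and 2961 in controls and 3182, 4618 and 5198 after prednisolone. At this finer scale the treatments overlapped. TCF7L2 lists had at most weak peaks at the same summit, the best at rank 40161. With 6 LEF1 libraries against 0 TCF7L2 libraries the exact permutation test of the antibody labels gave an unadjusted p = 0.005 for the summit. That is the smallest value its 400 relabellings allow, and the summit was chosen after its values were seen. After Benjamini-Hochberg adjustment over all summit windows, 0 windows at the loci were called. A second LEF1 summit, 0.53 to 1.33 kb from the 5′ end, was strong in control 1 and 3 and in prednisolone 2 and 3, and TCF7L2 had a strong peak there in prednisolone 1 alone (rank 7797).

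A site near the 3′ end of TNFAIP3 had the opposite order. Its LEF1 summits lay between 14.23 and 14.38 kb from the 5′ end in all 6 libraries. In the controls it ranked 20337, 32391 and 22753, with folds of 4.02, 3.35 and 3.83. After prednisolone it ranked 11988, 3877 and 4043, with folds of 5.0, 7.62 and 7.24. Neither the ranks nor the folds of the treatments overlapped, and the site was chosen after its values were seen. Of all LEF1 regions made from whole peaks, 13.9% were ahead in every treated library by whole-list ranks. No genome share is given here for the order of ranks or folds at single summits. All 3 controls missed the limit of 20000, control 1 narrowly.

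Whether this 3′ site counts as gained depended on how peaks were joined. With whole peaks merged, it shared the region chr6:138199617-138205444 with a peak of control 3 at 15.83 kb (rank 17279), and the region was not called gained, though the treated libraries still ranked it ahead. With 500 bp windows around summits it met the rule, as 1 of 24 LEF1 windows at the loci, beside 2.75% of 40375 in the genome, and 0 of the 24 were lost, beside 1.91%. TCF7L2 had a summit at this site in prednisolone 2 alone, at rank 82329. Farther downstream, chr6:138225551-138228662 was strong for LEF1 in control 3 (rank 7337) and in prednisolone 1 and 2 (ranks 16096 and 15151), with no order by treatment.

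**Figure D4:**
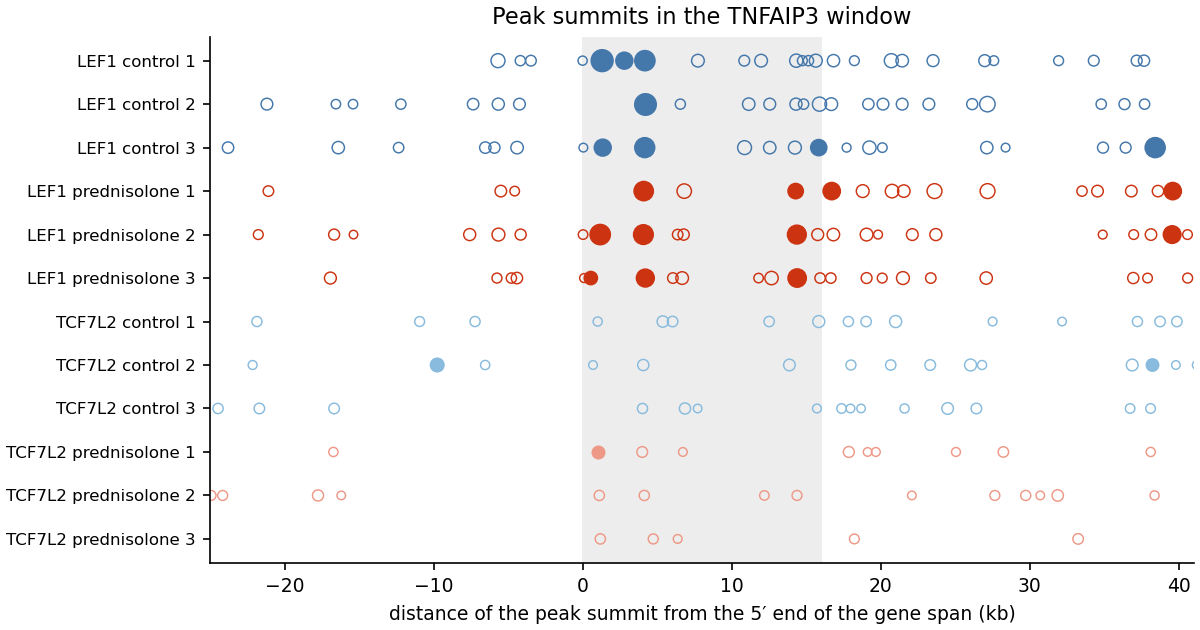
Peak summits in the TNFAIP3 window, by distance from the 5′ end of the gene span (x axis, kb), drawn as in the NFKB1 plot. All 6 LEF1 rows have a filled circle at 4.1 kb, and the circle at 14.3 kb is filled in the 3 prednisolone rows and open in the 3 control rows.

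Counted over the 7 loci, 2 of the 18 LEF1 regions ranked ahead in every treated library (NFKBIA 5′ end and TNFAIP3 3′ part) and 2 ranked behind (NFKB1 at 100 kb and TNFAIP3 5′ part). These small counts stand beside backgrounds of 7.78% and 7.66%, and counts this small do not set the loci apart from other LEF1 regions. For TCF7L2, 0 of 31 regions ranked ahead and 1, at RELA, ranked behind, beside 1.0% and 2.24% of all TCF7L2 regions. With whole-list ranks, chosen after the values were seen, 2 LEF1 regions were ahead and 4 behind, beside 13.9% and 12.5% of all LEF1 regions, the 4 being the 3 NFKB1 regions described and the TNFAIP3 5′ part. For TCF7L2, 1 was ahead and 4 behind, beside 2.42% and 6.54%. The 4 lay inside NFKB2, near the RELA 5′ end, just beyond the RELB 3′ end and downstream of TNFAIP3.

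**Figure D5:**
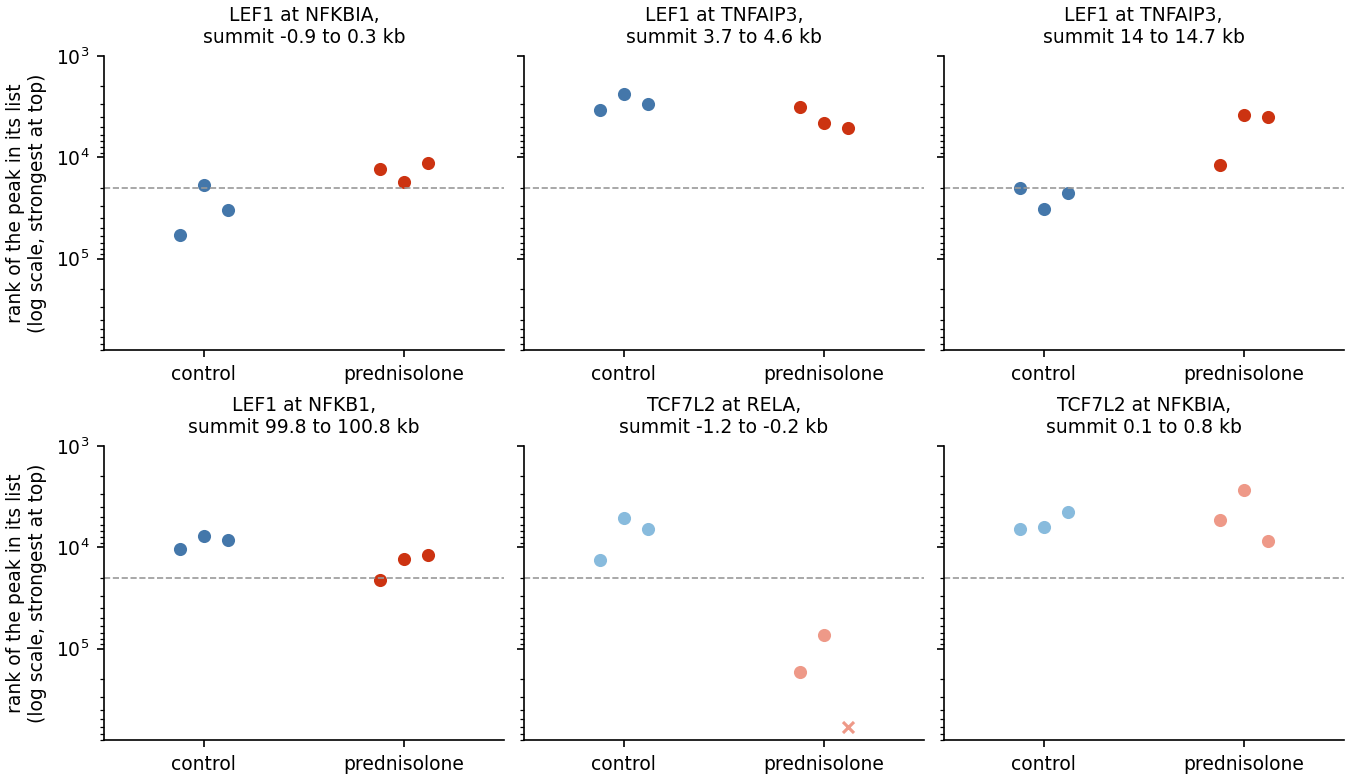
Rank of the best peak of each library within the stated distance from the 5′ end (y axis, log scale, strongest at the top) for 4 LEF1 and 2 TCF7L2 sites, in control and prednisolone libraries. Points are libraries, a cross is a library with no peak, and the dashed line is rank 20000. At the TNFAIP3 site at 14.3 kb the treated libraries rank from 3877 to 11988 and the controls from 20337 to 32391, and at RELA the TCF7L2 controls rank from 5140 to 13345.

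The last comparison asked which of the loci were taken by one factor and not by the other. In the exact permutation test of the antibody labels within treatment, adjusted by Benjamini-Hochberg over all 94374 regions, 0 regions were called in the windows and 0% in the genome, since the smallest adjusted p-value was 0.227. At an unadjusted p under 0.05, LEF1 was higher in 3 of the 41 regions and TCF7L2 in 0, beside 4.33% and 1.2% of all regions. The 3 were NFKB1 at 100 kb, NFKBIA at 17.4 kb upstream and the TNFAIP3 5′ part, each with p = 0.02 in the exact test. When peaks were limited to −log10 q-values from 5 upwards, NFKB1 at 100 kb and the TNFAIP3 5′ part passed in favour of LEF1, each with an adjusted p of 0.0324 in the permutation test. These were 2 of 25 regions, or 8.0%, beside 15.0% of 49945 regions in the genome. The lists are of unequal length at that limit, with 21764 to 27309 LEF1 peaks and 1271 to 3524 TCF7L2 peaks. TCF7L2 was higher in 0, beside 0.493%. At that limit the windows held 9 to 18 LEF1 peaks per library and 0 to 1 TCF7L2 peaks. Of the 2 TCF7L2 regions there, 0 were gained and 0 lost, beside 1.17% and 4.31% in the genome.

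Strong peaks of both factors were found in 8 of the 41 regions, or 19.5%, beside 19.8% in the genome. In control cells 4 regions of the windows had a strong LEF1 peak in all 3 libraries and 2 had a strong TCF7L2 peak in all 3, and 0 of the 4 overlapped, while 20.8% of LEF1 regions of that kind in the genome overlapped a TCF7L2 one. After prednisolone 1 of 4 such LEF1 regions overlapped a TCF7L2 region, at the NFKBIA 5′ end, beside 10.6% in the genome. These counts are too small to set apart from the genome shares. In the full lists, 35 of the 214 LEF1 summit windows at the loci, or 16.4%, were met by all 6 LEF1 libraries, beside 10.1% of all LEF1 windows. For TCF7L2 it was 1 of 269, or 0.372%, beside 0.757%.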

How the data were processed

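The authors called CUT&RUN peaks with MACS2 on hg19, per the submitters' processing notes, and each list belongs to 1 sample. The MACS2 version, aligner, control library and filters are not given in the sources used here, and IgG was not analysed here. The values deposited by the authors are, per peak, its position and summit, its fold ratio over background and its −log10 p-value and q-value. The lists do not give the read depth behind these values, so it is unknown.

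Peaks were ranked within a list by p-value, then fold, chromosome and position. The 20000 strongest were merged across libraries where they overlapped by at least 1 bp. Presence was tested by exact permutation, two-sided, with Benjamini-Hochberg adjustment over all regions (Python 3.11.15, numpy 2.4.6, pandas 2.3.3), after the scripts were tested on simulated data. A library without a strong peak was placed behind all strong ranks. The regions described were taken, per locus, from up to 4 with a strong peak in the most libraries, ties by median rank, plus called ones. Summit sites and the comparisons of tiles and summit distances were chosen after values were seen. The members and lists were chosen with earlier results of these data known. Distances are from span ends rounded to kb. The series describes replicates as independent experiments. Other pathway genes were not located, since no hg19 annotation was used here. Alternatives covered list length, q-value, ranking by fold, summit windows, window size, single libraries and the replicate number.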

Additional observations from a re-analysis of the deposited data

How the results depend on the processing

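Main values were 0 gained and 0 lost LEF1 regions, 0 gained and 1 lost TCF7L2 region, 0 regions called between antibodies, 2 LEF1 regions ranked ahead and 2 behind after prednisolone, and 0 and 1 for TCF7L2. The 1 lost TCF7L2 region, at RELA, became 0 with lists of 5000 or 10000 peaks, with −log10 q-values from 5 up, ranked by fold or within the gene spans alone, 5 with all deposited peaks and 3 with 50 kb on both sides. The RELA region could not be counted with the shorter lists, the q-value limit or the gene spans alone. Its control ranks reached 13345, its control −log10 q-values were at most 2.85, and it lies outside the rounded span. Lost LEF1 regions became 1 with all deposited peaks, 2 with −log10 q-values from 5 up and 1 ranked by fold, and gained LEF1 regions became 1 with summit windows. LEF1 regions ranked ahead became 0 with 10000 peaks, 1 ranked by fold and 4 with 50 kb, and those behind became 1 with 10000 peaks. TCF7L2 regions ranked behind became 0 with 10000 peaks and ranked by fold, and 3 with 50 kb. With whole-list ranks, an alternative chosen after seeing the data, LEF1 regions behind became 4 and TCF7L2 regions 1 ahead and 4 behind. Regions called as LEF1 higher became 2 with −log10 q-values from 5 up. Overlapping consensus regions, 0 in control and 1 after prednisolone, became 0 after prednisolone with 5000 peaks and at that q-value, and 2 and 2 with 50 kb. Shares over all regions are not given here for all deposited peaks, for 5000 or 10000 peaks or for ranking by fold. Counts under those settings therefore cannot be set against the genome, and windows with 50 kb also take in more regions.

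Strong peaks per library in the windows averaged 11.3 for LEF1 control, 8.67 for LEF1 prednisolone, 9.33 for TCF7L2 control and 5.33 for TCF7L2 prednisolone. In that order they were 1.33, 1.67, 0.667 and 1.33 with 5000 peaks, 15.3, 11, 0.333 and 0.333 with −log10 q-values from 5 up, and 24.7, 20.3, 19.3 and 12 with 50 kb; shorter lists and wider windows change these by construction. With single libraries left out there were 0 to 1 gained and 0 to 2 lost LEF1 regions, 1 to 3 lost TCF7L2 regions, 2 to 4 LEF1 regions behind and 1 to 3 TCF7L2 regions behind. With fewer libraries the rules are easier to meet, and shares over all regions are not given here for these settings. Without LEF1 control 1 or 3, 2 LEF1 regions were lost and 4 ranked behind, without LEF1 control 2 or 3, 1 was gained, and without TCF7L2 control 2, 3 TCF7L2 regions were lost and 3 ranked behind. The causes were not tested.

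With the replicate block the treatment counts were the same by construction (0 gained and 0 lost for LEF1, 0 gained and 1 lost for TCF7L2), and the exact permutation test could not go below p = 0.25. The antibody test called 0 regions under the block, with a smallest p of 0.03125 in the exact test. Same-numbered libraries did not deviate together over the regions, with correlations of −0.0552 to −0.00112 over 12 pairs. Weak TCF7L2 calls and 3 libraries per group limit every comparison.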
